A study of Citrus sinensis and Citrus junos and Citrus trifoliata with 12 samples.

Results

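The comparison sets leaves of one orange scion on one rootstock against leaves of the same scion on another. The scion was 'Lane Late' navel orange (Citrus sinensis, written LL). Leaves on Ziyang xiangcheng (Citrus junos, written Cj) gave 2 libraries, and leaves on trifoliate orange (Poncirus trifoliata, written Pt) gave 2 libraries, so 4 of the 12 libraries of the series entered, chosen by tissue and rootstock in the sample titles. All trees stood in one orchard, planted in 2009, every library carries the stage label 140 DAF, and sequencing followed in 2015. The series title speaks of saline-alkali stress, but the labels mark no leaf library as stressed or unstressed. The submitters call the 2 libraries of a side biological replicates. Whether each came from its own tree is not in the labels. A p-value here therefore speaks of the spread among these libraries, part of which may be technical. Each side is 1 rootstock variety, and whatever else differed between the trees of the 2 sides cannot be told apart from the rootstock.

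A grafted citrus tree is made of a rootstock, which forms the roots, and a scion, which forms the stem, leaves and fruit. Scion leaves keep the scion's own genome, but they receive water, minerals, hormones and other signals from the roots through xylem and phloem. Trifoliate orange is known as a rootstock that suffers iron deficiency on alkaline soils, and Ziyang xiangcheng is grown in China as a rootstock for such soils. The question of the comparison is which leaf transcripts differ when the root system differs.

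The 4 leaf libraries held 11261359 and 10655671 estimated counts on Cj, and 11364132 and 10968748 on Pt. They listed 22379 and 22232 genes on Cj, and 22306 and 22212 on Pt, out of 24164 IDs listed in at least 1 of them. The IDs are not paired with names in the files, and 0 of them matched the 29331 genes that RefSeq lists for assembly DVS_A1.0. Genes are therefore given by ID without a function, and the leaf label could not be checked against marker genes. The most counted gene was the same in every library: Cs6g18680 took 0.722% and 0.818% of counts on Cj, and 0.774% and 0.684% on Pt. Its difference was within the spread, with a log2 fold change of 0.095 ± 0.18 (SE) and an adjusted p of 0.810 in edgeR's quasi-likelihood test.

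A total of 18787 genes passed the filter on low counts and were tested, and 1247 of them were called (6.64%; edgeR's quasi-likelihood test, adjusted p under 0.05). Of these, 663 were higher on Cj (3.53% of genes tested) and 584 were lower on Cj (3.11%). The called genes took 8.35% and 8.49% of the counts of tested genes on Cj for those higher there, against 4.61% and 4.46% on Pt. For the genes lower on Cj the shares were 3.29% and 3.11% on Cj, and 6.59% and 6.55% on Pt. These shares describe the calls and do not test them. In whole leaves, fewer cells of a type and less RNA per cell cannot be told apart.

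The called differences were mostly moderate. The median log2 fold change was 0.91 among genes called higher and -0.93 among genes called lower, while over all tested genes it was -0.0059. A difference under 2-fold was found for 722 of the 1247 called genes (57.9%). At least 2-fold were 278 genes higher (1.48% of genes tested) and 247 lower (1.31%). At least 4-fold were 41 genes higher (0.218%) and 68 lower (0.362%). Without replicate 1 of the leaves on Cj the counts were 421 higher and 415 lower at 2-fold, and 66 and 109 at 4-fold. Without replicate 2 of the leaves on Pt 167 genes were at least 2-fold higher, and without replicate 1 on Pt 162 were at least 2-fold lower. The plot of fold change against level shows the larger differences on the side of genes lower on Cj.

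**Figure D1:**
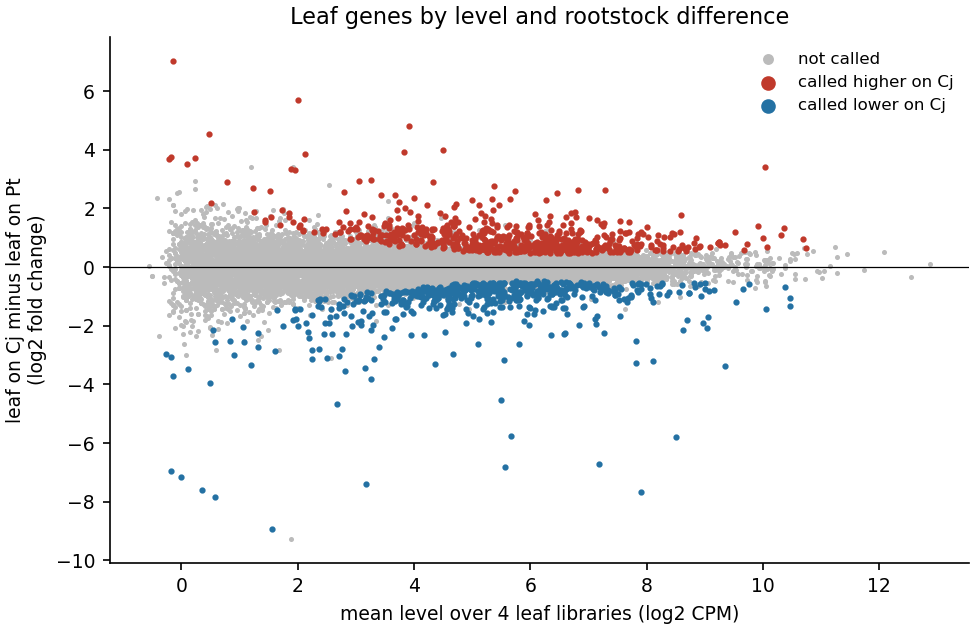
Each point is 1 of 18787 tested genes: the x axis gives its mean level over the 4 leaf libraries (log2 CPM) and the y axis the log2 fold change of leaves on Cj minus leaves on Pt, with called genes coloured (663 higher, 584 lower). Called genes lie on both sides of 0, and 68 of those lower but 41 of those higher on Cj differ at least 4-fold.

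All 1247 called genes kept the sides apart: both libraries of one side lay above both of the other. Many genes that were not called did so too. Both Cj libraries lay above both Pt libraries for 4883 genes (26.0% of genes tested) and below them for 5103 (27.2%). Levels are given in CPM, counts scaled to library size with TMM factors. To show what holds in each library, a gap fold was taken, the lowest library of the higher side over the highest library of the lower side. A gap of at least 2-fold was found for 202 genes higher and 210 lower on Cj, of which 149 and 152 were called. A gap of at least 4-fold was found for 26 genes higher and 47 lower, of which 25 and 47 were called, and a gap of at least 8-fold for 5 higher and 15 lower, all called.

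The genes furthest apart are described first by those higher on Cj. Cs2g31420, the gene of the largest gap among well-counted ones, stood at 26.6 and 31.5 CPM on Cj, against 0.442 and 1.62 CPM on Pt. The Pt values rest on 5 and 18 counts, and the lowest Cj library was 16.5 times the highest Pt library. Its log2 fold change was 4.81 ± 0.37 (SE) with an adjusted p of 5.5e-04 in edgeR's test. The best-counted gene with a gap of at least 2-fold was orange1.1t04360, at 2105 and 1699 CPM on Cj, against 847 and 654 CPM on Pt (log2 fold change 1.34 ± 0.18 SE, edgeR adjusted p = 0.00671).

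The other 4 genes with a gap of at least 8-fold on the higher side were Cs1g01700, Cs6g11700, Cs4g10240 and Cs7g07330, named after their values were seen. Cs1g01700 was the steadiest of them, at 1922 and 1910 CPM on Cj, against 192 and 167 CPM on Pt, a mean of 1916 ± 8.58 against 179 ± 18.1 CPM (SD, n = 2 each). Cs6g11700 stood at 51.0 and 33.9 CPM on Cj, against 3.45 and 1.80 CPM on Pt. The remaining pair were nearly unlisted on Pt: Cs4g10240 had 127 and 40 counts on Cj, against 1 and 2 on Pt, and Cs7g07330 had 23 and 28 counts, against 0 and 2. Those 2 genes rest on too few Pt counts for a fold.

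Larger gaps were found among the genes lower on Cj. Cs4g17240 had the largest, at 1.87 and 2.85 CPM on Cj, against 621 and 328 CPM on Pt, a gap of 115.2-fold (log2 fold change -7.65 ± 0.40 SE, adjusted p = 1.4e-04, edgeR). The best-counted gene with a gap of at least 2-fold was Cs9g14370, at 835 and 779 CPM on Cj, against 1912 and 2161 CPM on Pt (log2 fold change -1.34 ± 0.15 SE, adjusted p = 0.00267, same test). The rule that picked both genes asked for sides that do not overlap. For Cs4g17240 the Pt libraries themselves differed more than the Cj ones.

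Further genes lower on Cj were picked out after their values were seen. Cs3g14680 stood at 3.03 and 2.47 CPM on Cj, against 229 and 347 CPM on Pt, a gap of 75.5-fold (log2 fold change -6.70 ± 0.28 SE, adjusted p = 7.4e-05, edgeR). Cs7g20780 stood at 1.87 and 1.80 CPM on Cj, against 137 and 61.6 CPM on Pt, and Cs8g20740 at 2.67 and 4.74 CPM on Cj, against 80.2 and 91.7 CPM on Pt. Cs2g14490 was plainly present on both sides, at 115 and 116 CPM on Cj and 1263 and 1126 CPM on Pt. Cs6g20950 also had a gap over 8-fold, with 2 and 0 counts on Cj, against 335 and 59 on Pt, where the replicates were far apart. It passed in the main test (adjusted p = 0.0138, edgeR), and did not in limma-voom (adjusted p = 0.0747) or with robust estimation (adjusted p = 0.123).

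**Figure D2:**
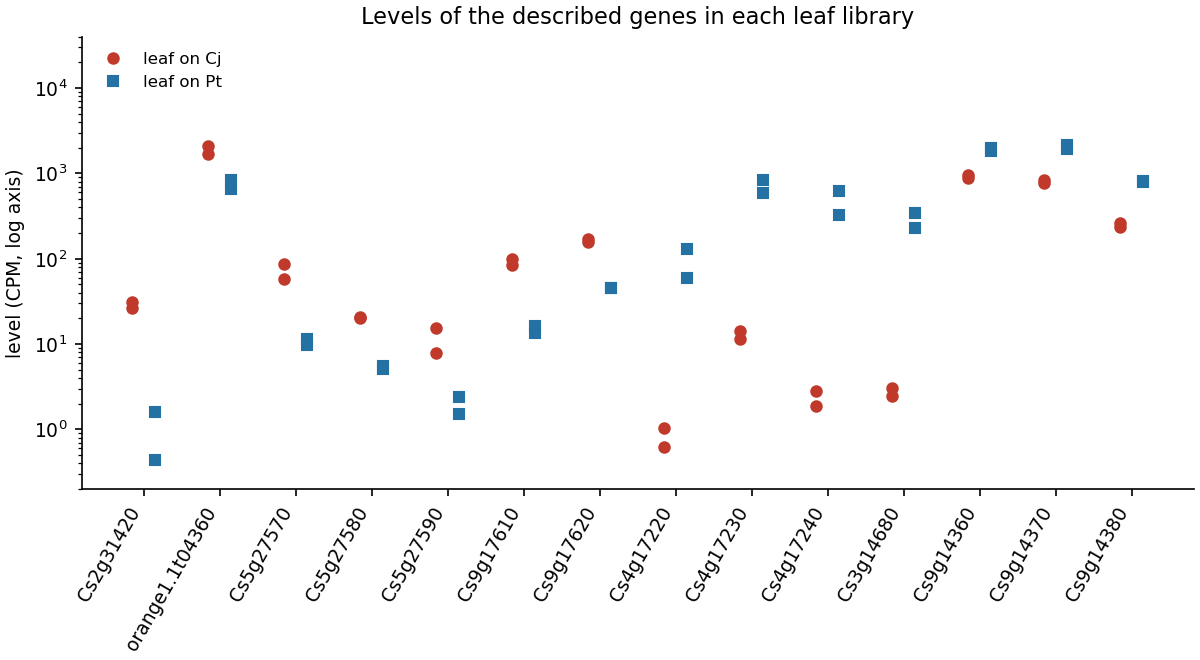
Levels (CPM, log axis) of 14 described genes in each library, with leaves on Cj as circles and leaves on Pt as squares. The circles and squares of each gene do not overlap, as for every called gene. The points of 1 side spread most for Cs2g31420 on Pt (0.442 and 1.62 CPM).

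Few genes with a useful number of counts were listed on one rootstock and missing on the other. Of 24164 listed IDs, 1 on Cj and 6 on Pt had at least 10 counts in both libraries and none on the other side. With no minimum count the numbers were 167 on Cj and 169 on Pt, so the split depends on the minimum. The gene on Cj was orange1.1t04454, with 13 and 19 counts on Cj and 0 in both Pt libraries. Orange1.1t04454 was called (adjusted p = 0.0179, edgeR), but not by limma on log2(FPKM + 1) (adjusted p = 0.144) or log2(FPKM + 0.1) (adjusted p = 0.0782). The best supported was Cs6g11120, with 0 counts in both Cj libraries and 70 and 53 on Pt, at least 39.8-fold lower on Cj when the Cj side is set at a floor of 3 counts over both libraries. Cs4g03050 had 0 counts in both Cj libraries and 37 and 21 on Pt, at least 18.8-fold lower by the same floor. Orange1.1t03944 had 0 counts in both Cj libraries but 147 and 10 on Pt, and it was not called (adjusted p = 0.0594, edgeR). It passed without replicate 2 on Pt (adjusted p = 0.0018), without replicate 1 on Cj (0.0199) and without replicate 2 on Cj (0.033). It also passed with the replicate number as a block (adjusted p = 4.9e-04), with library totals alone (0.0489) and with limma on log2(FPKM + 0.1) (0.0489). It did not pass with robust estimation (adjusted p = 0.313), limma on log2(FPKM + 1) (0.141), limma-voom (0.0953) or DESeq2 (0.0725). Nor did it pass with RLE scaling (0.0614) or with the length trend removed (0.0672). It was not tested without replicate 1 on Pt, the library with 147 counts. The bounds of 39.8-fold and 18.8-fold allow for counting error alone and not for spread between libraries. PCR copies were not marked. The 4 genes named in this paragraph were picked after their values were seen.

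Called genes sometimes sat on consecutive IDs, whose numbers are 10 apart. There were 42 pairs called higher and 33 called lower on Cj, 5 runs of 3 called higher and 6 called lower, and 0 longer runs. Over all genes tested 3.53% were called higher and 3.11% lower. How many runs these shares alone would give was not worked out, so the counts do not show that calls cluster. The files give no coordinates, so nearness on the chromosome is not measured here. Where consecutive genes are near-identical copies, the authors' counting could have divided shared reads between them.

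The run with the widest smallest gap was Cs4g17220, Cs4g17230 and Cs4g17240, which were all far lower on Cj than on Pt. Cs4g17220 stood at 0.624 and 1.04 CPM on Cj, against 129 and 59.0 CPM on Pt. Cs4g17230 stood at 11.5 and 14.3 CPM on Cj, against 845 and 583 CPM on Pt. In all 3 genes replicate 1 on Pt was the higher of the Pt libraries, by more than the Cj replicates differed in CPM, and the gaps were 56.6-fold, 40.7-fold and 115.2-fold in ID order. In edgeR's test the first gene had a log2 fold change of -6.81 ± 0.50 (SE) at an adjusted p of 4.5e-04. The second had -5.79 ± 0.24 (SE) at 7.4e-05.

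A second run lower on Cj was much better counted and moved less. Cs9g14360 stood at 962 and 889 CPM on Cj, against 1854 and 1985 CPM on Pt. Its neighbour by ID Cs9g14370 is given above, and Cs9g14380 stood at 259 and 238 CPM on Cj, against 826 and 801 CPM on Pt. Replicates of each side lay close together, and the log2 fold changes were -1.05 ± 0.14, -1.34 ± 0.15 and -1.71 ± 0.13 (SE) in ID order. The run from Cs4g17220 was set by rule, with earlier results of these data known. The run from Cs9g14360 was picked after its values were seen. Its smallest gap was 1.93-fold. The runs Cs4g03200 to Cs4g03220 and Cs3g18050 to Cs3g18070, also lower on Cj, had wider smallest gaps, 2.73-fold and 2.00-fold.

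The widest run higher on Cj, described after its values were seen, was Cs5g27570, Cs5g27580 and Cs5g27590. Cs5g27570 stood at 87.1 and 58.1 CPM on Cj, against 11.6 and 9.70 CPM on Pt. Cs5g27580 stood at 20.2 and 20.7 CPM on Cj, against 5.48 and 5.12 CPM on Pt, and Cs5g27590 at 15.4 and 7.87 CPM on Cj, against 2.39 and 1.53 CPM on Pt. The sides did not overlap in any of the 3, as in every called gene, although replicates on Cj differed clearly in the first and the last. Without replicate 2 on Pt, Cs5g27590 no longer passed (log2 fold change 2.29, adjusted p = 0.0541, edgeR), while with all libraries it had 2.57 ± 0.40 (SE) at an adjusted p of 0.0103.

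For Cs9g17620 the listed length differed between rootstocks along with the level. The authors' tables list a length for each gene, and it differed between libraries only for genes with several transcripts; of 16622 genes with 1 transcript, 0 did. Cs9g17620, with 3 transcripts listed, had a length of 3612 bases in both Cj libraries, against 2005 and 1850 bases on Pt. Its counts were 1888 and 1673 on Cj, against 514 and 510 on Pt. On the log2 scale that is 1.84 ± 0.12 higher (SE, edgeR adjusted p = 3.2e-04). Because FPKM divides by that length, the mean deposited FPKM differed less, at 44.4 on Cj and 23.8 on Pt. The gene of the preceding ID, Cs9g17610, with 1 transcript, was also called higher, at 98.1 and 83.8 CPM on Cj, against 16.4 and 13.6 CPM on Pt.

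Such shifts of length were rare. Among 7170 tested genes with several transcripts and at least 20 counts in each library, the listed length was greater in both Cj libraries than in both Pt libraries for 1122 and smaller for 1008, but the sides were more than 1.2 times apart for 3 genes. Besides Cs9g17620 these were Cs9g09440 and Cs2g19020. Cs9g09440 was listed at 2284 and 2392 bases on Cj, against 1482 and 1517 bases on Pt. It was not called on counts (log2 fold change 0.43 ± 0.11 SE, adjusted p = 0.0625, edgeR), but it passed in DESeq2 (adjusted p = 0.0415) and with the replicate number as a block (adjusted p = 0.0439). On FPKM its means were 62.5 on Cj and 73.6 on Pt, the opposite order. Cs2g19020 was shorter on Cj, at 1859 and 1831 bases, against 2348 and 2543 bases on Pt, with no call on counts (log2 fold change -0.26 ± 0.11 SE, adjusted p = 0.229, edgeR). Its mean FPKM was 47.9 on Cj and 43.7 on Pt, also the opposite order to its counts. These 3 were chosen after their values were seen, and lengths were not tested.

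Well-counted genes were called more often. The tested genes were parted into 10 groups of like size by mean CPM, not divided by gene length. In the lowest group 1.44% were called, and in the highest 12.7%. The median size of the called differences on the absolute log2 scale was 3.34 in the lowest group and 0.77 in the highest, an order that the call itself favours, since a gene with few counts needs a larger fold to pass. In groups 9 and 10 more genes were called higher than lower on Cj, 121 against 75 and 136 against 103. Genes in these groups were also longer, with medians of 2110 and 2116 bases, against 1117 in the lowest group. Over 5 groups by length, shortest first, groups 9 and 10 together had 18, 40, 51, 67 and 81 called higher. Called lower were 25, 41, 36, 45 and 31. Of the 100 best-counted genes 16 were called, 10 higher and 6 lower on Cj, beside 6.64% over all genes tested.

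**Figure D3:**
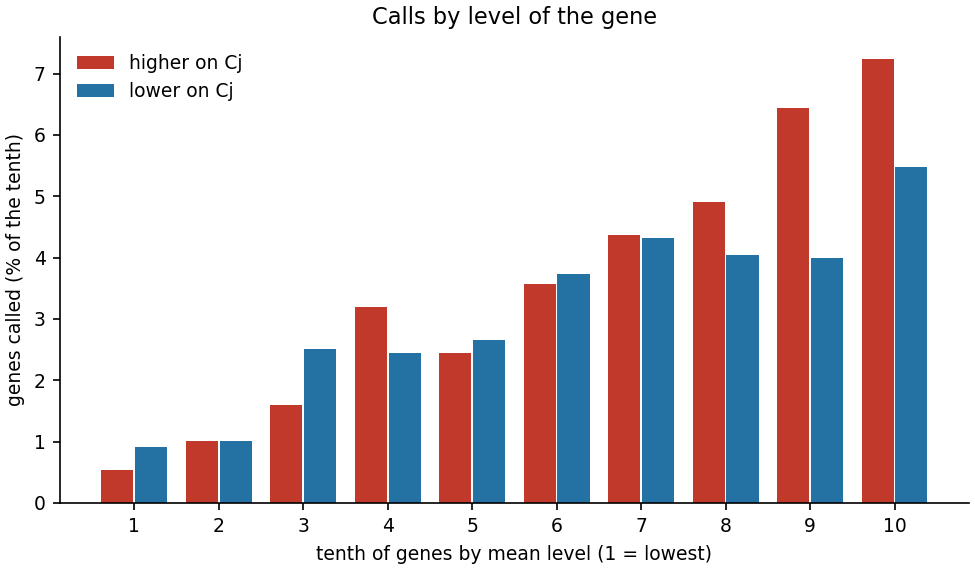
Genes called (per cent of each group) in 10 groups of tested genes by mean level, for genes higher and lower in leaves on Cj. Together the bars make 1.44% in the lowest group and 12.7% in the highest.

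The direction of the calls went with gene length. The tested genes were parted into 5 groups of like size by length. In the shortest (up to 1047 bases) 61 were called higher and 109 lower on Cj, and in the longest (2647 bases or more) 183 were called higher and 73 lower. Over all genes of a group, called or not, the median log2 fold change was -0.080 in the shortest, -0.062, -0.027 and 0.0054 in the middle ones and 0.11 in the longest. The medians of each library follow. They are set against the mean of the same 4 libraries, so a rise on one side tends to bring a fall on the other. Relative to the mean of the 4 libraries, the median log2 level of the longest group was 0.039 and 0.071 on Cj, against -0.028 and -0.069 on Pt. For the shortest group it was -0.028 and -0.048 on Cj, against 0.025 and 0.066 on Pt. Within each of 5 groups by mean CPM, not divided by length, the longest genes had a positive and the shortest a negative median.

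Replicates of one side also differed with length. Spearman's rho across the 18787 genes between length and the log2 ratio of 2 libraries was 0.10 to 0.20 for the 4 ratios of a Cj over a Pt library, -0.057 for replicate 1 over 2 on Cj and 0.098 on Pt. Genes are not independent replicates and these ratios share libraries, so the values are descriptive. With each library's trend on length removed before the test, an alternative chosen after seeing the data, 1170 genes were called, 618 higher and 552 lower on Cj. Of these, 1090 were among the 1247 with the same direction. The longest group then had 109 higher and 111 lower, and the shortest 70 and 86. The removal by design brings the median log2 fold change of each length group near 0. It was -0.0087 in the shortest and 0.0063 in the longest. A more even split is therefore favoured by the removal itself and is no separate result. Leaving out a library also moved the split: the longest group had 58 higher and 30 lower without replicate 1 on Pt, and 33 and 40 without replicate 2 on Pt. The shortest group had 32 and 48 in the first of these and 29 and 51 in the second, and 171 lower without replicate 1 on Cj. What sets the trend with length was not tested.

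**Figure D4:**
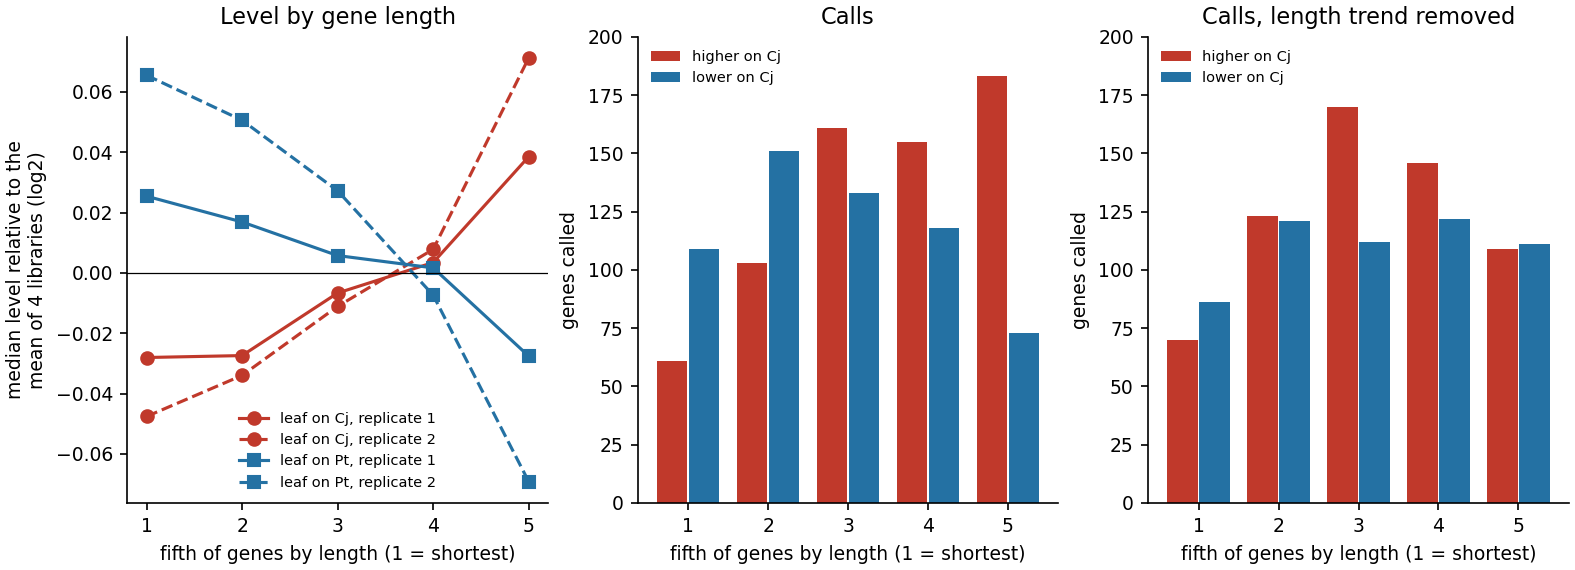
Left, median log2 level of 5 groups of genes by length in each library, relative to the mean of the 4; middle and right, genes called higher and lower on Cj in each length group, before and after the length trend of each library was removed. The Cj lines climb and the Pt lines fall with length. The 183 against 73 calls of the longest group become 109 against 111, a more even split that the removal itself favours.

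The difference between rootstocks was wider than that between replicates, but the replicates were not alike. At least 2-fold apart, on log2(CPM + 0.5), were 911 to 1312 genes between a Cj and a Pt library. Between the replicates the number was 454 on Cj and 327 on Pt. Among the 1247 called genes, 19 were at least 2-fold apart between the Cj replicates and 10 between the Pt replicates. The call itself favours genes whose replicates lie close together, so these numbers are no separate evidence. The biological coefficient of variation was 13.6% on Cj and 12% on Pt.

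The number of calls depended on single libraries. Leaving out replicate 1 on Cj gave 1675 genes (875 higher and 800 lower), and leaving out replicate 2 on Cj gave 1106 (580 and 526). Leaving out replicate 1 on Pt gave 507 (283 and 224), and leaving out replicate 2 on Pt gave 520 (224 and 296), with more lower than higher genes. Each of these fits takes the lone library of a side to vary like the other side. They reuse the libraries by which genes were called and named, so passing in them is no separate evidence. A core of 321 genes passed in all 4 of them with the direction of the main test, 163 higher and 158 lower on Cj, which is 25.7% of the called genes. The called genes named above passed in these fits too, with 4 exceptions: Cs5g27590 as given, Cs7g07330 (adjusted p = 0.0792, edgeR) and Cs4g03050 (adjusted p = 0.0652) without replicate 1 on Pt, and orange1.1t04454 without replicate 1 (adjusted p = 0.0877) or 2 (adjusted p = 0.0864) on Pt. Orange1.1t04454 did not pass the low-count filter without replicate 2 on Cj.

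**Figure D5:**
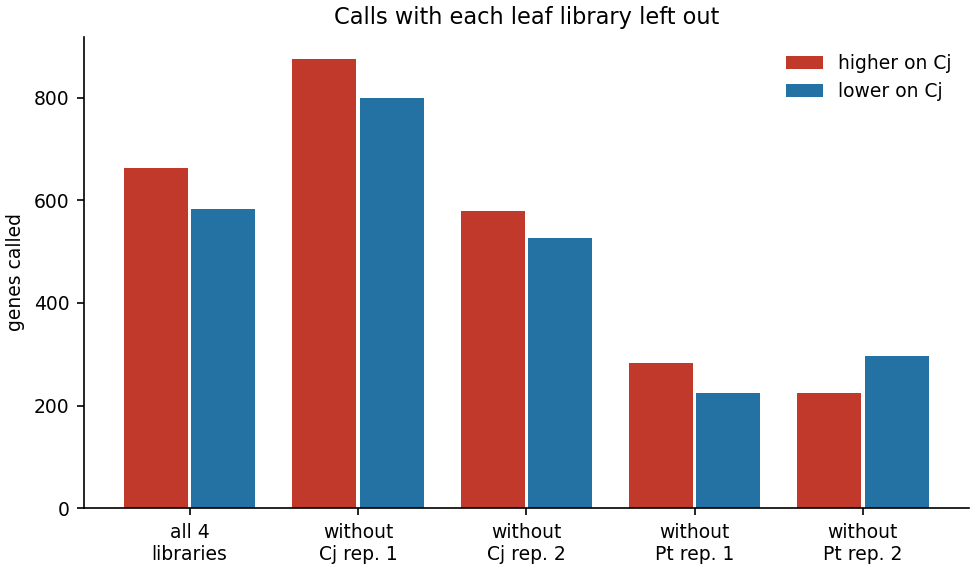
Number of genes called higher and lower in leaves on Cj with all 4 libraries and with each library left out. The totals are 1247 with all libraries, 1675 and 1106 without a Cj library, and 507 and 520 without a Pt library.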

How the data were processed

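Expected counts (estimated counts per gene) are the authors' own deposited values, unscaled, and 74.1% to 74.3% of them were whole within 0.005. The deposited FPKM values were scaled by the authors for gene length and library size. Per the file headers, each library's table also lists transcripts and a gene length. The labels' protocols describe poly(A) selection, random priming and PCR. Aligner, counter, annotation and build: not given in the sources used here. The root and stem libraries were not used here.

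Counts were rounded, a gene missing from a table was 0, and 5377 IDs failed filterByExpr. The main test was edgeR's quasi-likelihood test (4.0.16, R 4.3.3) on the 4 leaf libraries, TMM-scaled, with 2 residual degrees of freedom and Benjamini-Hochberg adjustment over 18787 genes. SE is the log2 fold change over the square root of F. Alternatives used limma 3.58.1 (voom and log2 FPKM) and DESeq2 1.42.0, other scalings and filters, and left-out libraries. The fits were also run on simulated data, where false calls took a larger share of the calls than the 0.05 limit on the adjusted p. That run therefore does not vouch for the calls given here. The chi-square per degree of freedom was 9.32 between Cj and 8.20 between Pt replicates, so none were merged. With no names, the rule gives per direction the called gene of largest gap fold at a mean log2 CPM of at least 3, and the best-counted other with a gap of at least 2, plus the widest run of IDs. The comparison and its rules were chosen with earlier results of these data known.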

Additional observations from a re-analysis of the deposited data

How the results depend on the processing

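With 2 libraries a side the spread of a gene is poorly known, and an exact permutation test of 1 value could reach no p below 0.333. Among the 17 alternatives were other scalings, filters, DESeq2, limma-voom, unrounded counts, robust estimation and removal of the length trend. These kept the counts of all, higher, lower, 2-fold and 4-fold calls within 1.5 times. Removing the trend moved the calls of the longest genes to 109 higher and 111 lower, against 183 and 73. The removal itself favours such a more even split. On log2(FPKM + 1) 790 genes were called, 373 higher on Cj, with 175 up by 2-fold or more, 23 up and 39 down by 4-fold or more; on log2(FPKM + 0.1) it was 740, with 352 higher, 388 lower and 185 at least 2-fold higher; the cause was not tested. The replicate block gave 2091 genes, 1085 higher and 1006 lower; the deviations of same-numbered libraries had r = 0.11 across genes, and the labels do not say that a number marks a tree or batch. Leaving out 1 library gave 507 to 1675 genes, 224 to 875 higher and 224 to 800 lower, with 167 to 421 up and 162 to 415 down by 2-fold or more, and 37 to 66 up and 49 to 109 down by 4-fold or more. Genes with counts in both libraries of one side alone numbered 167 on Cj and 169 on Pt with no minimum, 5 and 16 at 5 counts, and 0 and 2 at 20 counts, against 1 and 6 at 10 counts. No gene named as called changed direction under any alternative that tested it.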

Other observations

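Calls were spread over all groups of IDs. Over all genes tested 6.64% were called, 3.53% higher and 3.11% lower on Cj. Of tested genes whose IDs start with Cs1g 4.96% were called, the lowest share, and of those starting with Cs9g 8.63%, the highest, while IDs of the orange1.1t form had 5.87%. Of the 11416 genes with 1 listed transcript, 6.51% were called, 377 higher and 366 lower on Cj. Of the 1839 with 4 or more transcripts, 7.50% were called, 91 higher and 47 lower. Both shares lie near that over all genes tested. Genes with 4 or more transcripts were also longer, with a median of 2088 bases, against 1542 bases for genes with 1 transcript. These shares were looked at after the data had been seen and were not tested.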
